A study of Mus musculus with 9 samples.

Results

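The genes described here are 42 components of the machinery that copies chromosomal DNA, measured in progenitor cells of mouse bone marrow stroma. They were taken by name from a table of 24186 genes, each name matched 1 gene, and all 42 were among the 15098 genes that passed a filter on low counts. They comprised origin licensing factors (Orc6, Cdc6, Cdt1, Gmnn), the MCM helicase (Mcm2 to Mcm7), helicase activators (Gins1 to Gins4, Mcm10), polymerase and primase subunits (Pola1, Pola2, Prim1, Prim2, Pold1, Pold2, Pold3, Pole, Pole2) and the sliding clamp with its loader (Pcna, Rfc1 to Rfc5). The others were the single-strand binding subunits Rpa1 to Rpa3, the Okazaki fragment enzymes Fen1 and Lig1, enzymes of nucleotide supply (Rrm1, Rrm2, Tyms, Tk1), and factors that rebuild chromatin and its DNA methylation behind the fork (Uhrf1, Chaf1a, Chaf1b).

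Replication origins are licensed in G1, when ORC, CDC6 and CDT1 load the MCM hexamer onto DNA, and geminin blocks further loading once S phase has begun. CDC45 and GINS then turn the hexamer into an active helicase, polymerase alpha and primase lay down primers, and polymerases delta and epsilon extend them on the PCNA ring. Many genes of this machinery are targets of E2F transcription factors, which the retinoblastoma family holds back in resting cells, so their transcripts are widely read as a mark of cells entering S phase.

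Poly(A) RNA came from marrow stromal cells of adult C57Bl/6 mice carrying the irtTA-GBD*-TAg transgene. Of 9 libraries, 3 were adipogenic progenitors given interferon-γ (IFNγ) at 10 ng/ml for 3 days, 3 were osteogenic progenitors without IFNγ, and 3 were untreated adipogenic progenitors. All 3 groups carried the transgene, from which dexamethasone and doxycycline drive large T antigen. All had been grown in the presence of both drugs, cells had been cloned, and both drugs were withdrawn for 3 days before RNA was taken. Large T antigen itself binds the retinoblastoma family, and its transcript was not analysed here. The design text calls the samples biological replicates, but does not say whether their cells came from different clones, cultures or animals, and p-values therefore cover only the spread between these samples. Libraries are called by their group and the number 4, 5 or 6 in their label.

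Libraries held 27440089 to 39251602 counts, so a gene with no count could stand at most at 0.0749 to 0.113 CPM (counts scaled by total and TMM factor, with 3 counts as the floor, counting error only). No member was at 0 in any library. The labels were checked against known genes. Irf1, a direct target of interferon signalling, averaged 790.5 ± 137 CPM in treated, 41.4 ± 5.13 in osteogenic and 53.6 ± 9.73 in untreated adipogenic libraries (SD, n = 3 each), and Sp7, a regulator of osteoblasts, averaged 0.134 ± 0.0181, 100.2 ± 43.2 and 0.182 ± 0.118 CPM in the same groups. Of 6 fat cell markers, Fabp4, Lpl, Cebpa and Pparg were expressed, at up to 234, 291, 60.9 and 60.5 CPM, each highest in untreated library 6. Adipoq and Plin1 had 14 and 4 counts over the 9 libraries. The 6 summed to 74.9 CPM in untreated library 5 and 77.9 CPM in osteogenic library 4, so they did not mark every adipogenic library. Of 8 stromal markers, Col1a2, Cd44, Pdgfrb and Vcam1 reached 28364, 391, 388 and 152 CPM, and Thy1 had 2 counts over the 9 libraries. Of 9 blood cell markers, Cd68, a lysosomal protein of macrophages and of other cells, reached 18.6 CPM and Lyz2 reached 2.68 CPM, whereas Ptprc, the marker common to leukocytes, had 8 counts. Of the endothelial markers, Pecam1, Cdh5 and Emcn had 20, 6 and 0 counts. Kdr, which endothelial cells share with other cell types, stood at 21.5 to 53.9 CPM in treated, 1.35 to 2.39 CPM in osteogenic and 8.65 to 17.4 CPM in untreated libraries, and was the bulk of the endothelial marker sum; whether it bears on the results was not tested.

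The replication genes were highest in IFNγ-treated adipogenic progenitors and overlapped in total between the osteogenic and untreated groups. Their summed level was 4482, 2759 and 4391 CPM in treated libraries 4, 5 and 6, 2718, 2196 and 2609 CPM in osteogenic libraries and 2494, 1758 and 3062 CPM in untreated libraries. Each treated library exceeded the untreated library of its number, yet treated library 5 lay below untreated library 6. The libraries numbered 5 were low in both arms: untreated library 5 was the lowest of its group for 39 of 42 genes and treated library 5 for 41 of 42. The exceptions were Rfc3, Tk1 and Rrm2 among untreated libraries and Rrm2 among treated ones, for which library 4 was the lowest. Osteogenic libraries were closer to each other, and the treated libraries 4 and 6 were the highest of all 9 for 24 and 16 genes. These are bulk samples, where more cells in S phase and more transcript per cell cannot be told apart.

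The sums of bone and stromal cell markers, mostly collagen transcripts, were lower in treated libraries, where the replication genes were higher. The 6 bone cell markers summed to 1547, 3436 and 1990 CPM in treated libraries 4, 5 and 6, 31439, 29649 and 44000 CPM in osteogenic libraries and 8466, 9298 and 3156 CPM in untreated libraries. The 8 stromal markers summed to 4819, 4080 and 4751 CPM in treated, 20170, 25137 and 29210 CPM in osteogenic and 9941, 7071 and 6667 CPM in untreated libraries. Both sums were lower in each treated library than in the untreated library of its number, and highest in the osteogenic libraries. Most of each sum came from the collagen genes Col1a1 and Col1a2. Tested with the number of the library as a block, Col1a1 fell with IFNγ, at -1.54 ± 0.36 (adjusted p = 0.0431). Col1a2 fell too, at -0.85 ± 0.19 (adjusted p = 0.0396), as did Pdgfrb, at -0.67 ± 0.13 (adjusted p = 0.0236). None of the other bone and stromal markers passed, and 645 of all 15098 genes tested fell in that test. Without the block, the log2 fold change was above 0 for 1 of 6 bone and 3 of 7 stromal markers tested. Fat cell markers summed to 97.4, 87 and 333 CPM in treated, 77.9, 70.6 and 37.1 CPM in osteogenic and 189, 74.9 and 646 CPM in untreated libraries, and blood cell markers to at most 22 CPM in any library. The part of these markers in the results on replication genes was not tested.

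IFNγ-treated and untreated adipogenic libraries were compared first, a comparison that asks how the cytokine changed these progenitors. The fitted change was above 0 for all 42 genes, with a median log2 fold change of 0.74 (0.08 to 1.5) beside -0.02 over all genes, 47.3% of which were above 0. With edgeR's quasi-likelihood test and Benjamini-Hochberg adjustment over all genes (the adjusted p used throughout, threshold 0.05), 1 of the 42 passed, Rfc3, where 2.01% of all genes passed in that direction and 2.26% in either. At an unadjusted p under 0.05, 23 genes were higher and none lower, beside 8.95% of all genes higher, and DESeq2 called 12 (5% of all genes). The treated and untreated ranges did not overlap for 12 genes, all higher with IFNγ, beside 10.2% of all genes.

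Libraries of the same number deviated together in the 2 adipogenic groups, so the number was also fitted as a pairing block (called the paired test here). In the paired test 29 of the 42 rose and none fell, beside 6.53% of all genes that rose and 10.8% that passed in either direction, with a median log2 fold change of 0.75. The ratio of treated to untreated CPM had a median over the genes of 1.82 in pair 4, where 41 of 42 were higher, 1.63 in pair 5 (40 of 42) and 1.51 in pair 6 (42 of 42). Higher in 3 of 3 pairs were 39 genes, beside 26.9% of all genes. The exceptions were Rrm1 in pair 4 and Rpa3 and Rrm2 in pair 5, with ratios of 0.942, 0.936 and 0.888. Without pair 4, 5 or 6 the number that passed fell to 10, 9 or 11. The 6.53% above is from the fit with all pairs, and the share of all genes in the smaller fits is not given here. Cdc6, Pola1, Pola2, Pole, Lig1 and Uhrf1 passed in all 3 of those fits.

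**Figure D1:**
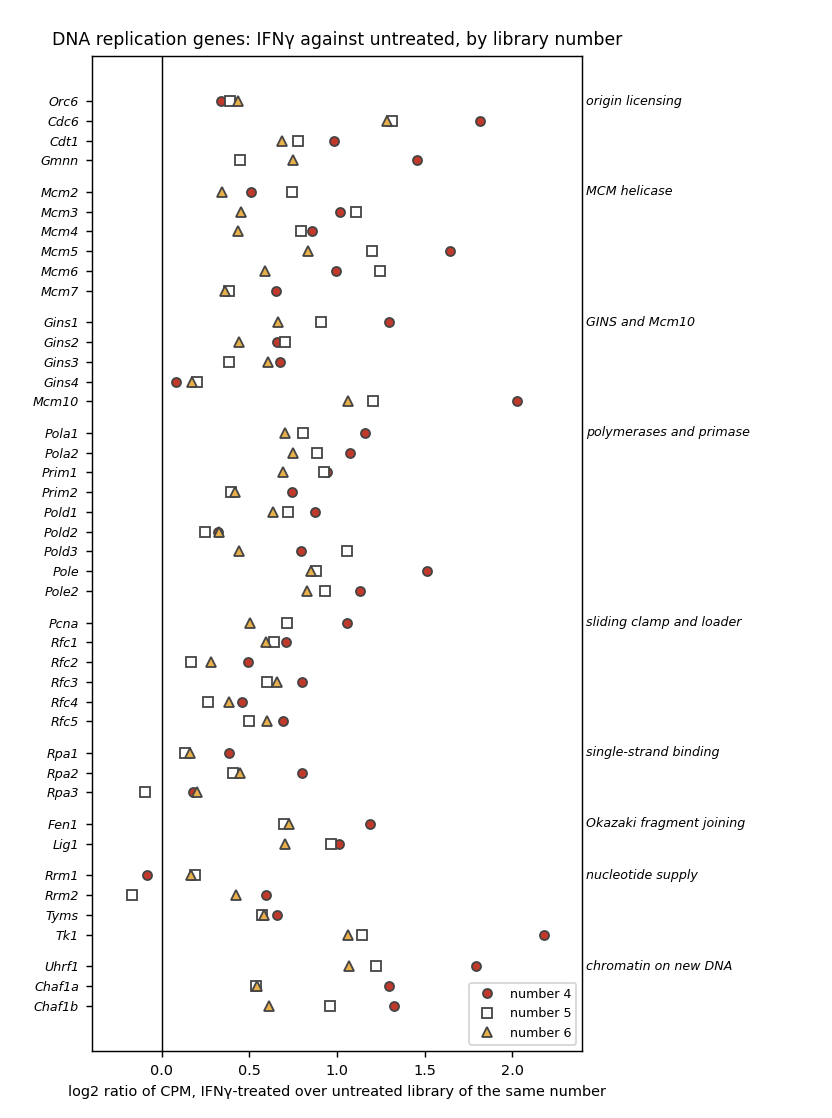
Log2 ratio of CPM in the IFNγ-treated over the untreated adipogenic library of the same number (x axis) for each of the 42 genes (y axis), grouped by role, with 1 symbol per pair. Nearly all points lie right of 0, the exceptions being Rrm1 in pair 4 and Rpa3 and Rrm2 in pair 5, and pair 4 holds the largest ratios, those of Tk1 and Mcm10.

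IFNγ-treated adipogenic progenitors also stood above osteogenic ones. Of the 42 genes 9 rose and none fell (adjusted p under 0.05), beside 9.2% of all genes that were higher and 16.7% that passed in either direction, so that the share of members called, 9 of 42, stood above the background. They were Cdt1, Gmnn, Mcm7, Mcm10, Pola2, Prim1, Fen1, Uhrf1 and Chaf1a, and the median log2 fold change of the 42 was 0.64, with 39 above 0, beside 0.03 over all genes, 52.2% of which were above 0. Treated ranges lay wholly above the osteogenic ones for 22 genes (19.7% of all genes) and below them for 1, Rrm1 (18.8% of all genes). The count of 9 fell to 3 or 2 without treated library 4 or 6 and to 4, 2 or 2 without osteogenic library 4, 5 or 6, and it was 14 without treated library 5. The shares of all genes in those fits are not given here, so whether the members stood above the background in them was not assessed. Cdt1 and Pola2 passed in each of these 6 fits. Gmnn and Uhrf1 did not pass with limma-voom (adjusted p = 0.0689 and 0.0564) or with upper-quartile scaling (adjusted p = 0.0545 and 0.0585), and Mcm10 did not with limma-voom (adjusted p = 0.0502).

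Osteogenic and untreated adipogenic progenitors, the comparison of the 2 lineages without the cytokine, showed no replication gene past the threshold, where 5.17% of all genes passed in either direction. With edgeR, 2 genes were higher (Rfc3 and Rrm1) and 1 lower (Cdt1) at an unadjusted p under 0.05, and DESeq2 called Rrm1 higher and Cdt1 lower (6.29% and 8.54% of all genes). The unadjusted shares over all genes were 10.5% higher and 12.8% lower. The fitted change was above 0 for 22 of 42 genes (48.6% of all genes) and its median was 0.06, within a range of -0.79 for Cdt1 to 0.78 for Pole2. Osteogenic ranges lay above the untreated ones for 5 genes (15% of all genes) and below them for 1 (15.9% of all genes). That median turned with the library left out: it was -0.15 without untreated library 5 and 0.24 without untreated library 6. The 3 comparisons share libraries, so each gene's values are given side by side below rather than set against each other.

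**Figure D2:**
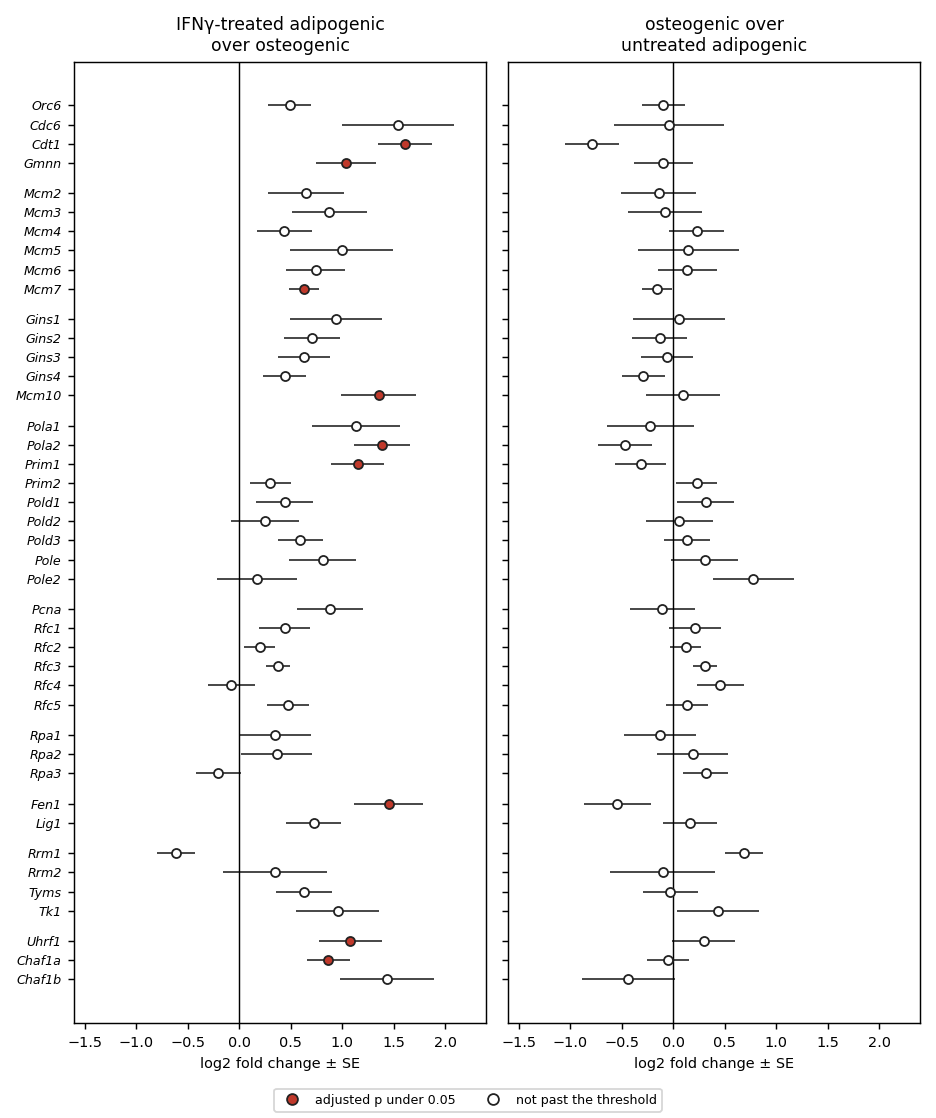
Log2 fold change with its SE (x axis) for the 42 genes (y axis) in IFNγ-treated adipogenic over osteogenic libraries (left panel) and in osteogenic over untreated adipogenic libraries (right panel), n = 3 libraries a group. The 9 filled points on the left are the genes with an adjusted p under 0.05; on the right none is filled, and Cdt1 and Pole2 mark the ends of the range.

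Among the origin licensing factors, Cdt1 (ENSMUSG00000006585), which brings MCM to origins, had 183, 100.2 and 149 CPM in treated libraries 4, 5 and 6, 47.7, 40.5 and 53.2 CPM in the osteogenic libraries and 92.8, 58.5 and 92.7 CPM in the untreated ones. The 3 groups were fully separate, with every treated library above and every osteogenic library below the untreated ones. Cdt1 rose in treated against osteogenic libraries, by 1.61 ± 0.26 (a log2 fold change ± SE, as are all changes written this way, adjusted p = 0.00591). Against untreated libraries its log2 fold change with IFNγ was 0.82 ± 0.26 (adjusted p = 0.179), and it rose in the paired test (adjusted p = 0.0107). Osteogenic over untreated it stood at -0.79 ± 0.26 (adjusted p = 0.123), the lowest value of the 42. Gmnn (ENSMUSG00000006715), which encodes geminin, the inhibitor of CDT1, had 32.9, 15 and 26.9 CPM in treated libraries 4, 5 and 6, 12.3, 10.8 and 13.3 CPM in the osteogenic libraries and 12, 11 and 16 CPM in the untreated ones. Treated libraries lay above all osteogenic ones, but treated library 5 lay below untreated library 6. Gmnn rose against osteogenic libraries by 1.04 ± 0.29 (adjusted p = 0.0425) and in the paired test against untreated ones by 0.88 ± 0.20 (adjusted p = 0.0395). The licensing factor and its inhibitor were thus both higher in treated libraries, in each of the 3 pairs. Neither paired call held when any pair was left out, and Gmnn passed against osteogenic libraries in 1 of 6 fits without a library. Cdc6, the ATPase that acts with CDT1, had the largest paired change of the 42, 1.47 ± 0.18 (adjusted p = 0.00551), with treated to untreated ratios of 3.52, 2.49 and 2.43 in pairs 4, 5 and 6. Orc6, a subunit of the origin recognition complex, was the one licensing gene that did not pass, at 0.39 ± 0.11 (adjusted p = 0.0646 in the paired test).

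All 6 subunits of the MCM helicase were higher with IFNγ in each of the 3 pairs, and 5 of them, all but Mcm2, rose in the paired test. Mcm2 (ENSMUSG00000002870) had 381, 194 and 256 CPM in treated libraries 4, 5 and 6, 211, 123 and 196 CPM in the osteogenic libraries and 267, 116 and 201 CPM in the untreated ones. Its groups overlapped throughout, with library 4 the highest in each. Mcm3 (ENSMUSG00000041859) had 277, 155 and 263 CPM in treated libraries 4, 5 and 6, 144, 101 and 134 CPM in the osteogenic libraries and 136, 71.8 and 192 CPM in the untreated ones. Mcm4 (ENSMUSG00000022673) had 235, 164 and 253 CPM in treated libraries 4, 5 and 6, 178, 136 and 168 CPM in the osteogenic libraries and 129.9, 94.6 and 187 CPM in the untreated ones. For both, untreated library 6 reached above treated library 5, and the treated libraries lay wholly above the osteogenic ones for Mcm3 only. Mcm5 (ENSMUSG00000005410) had 148, 68.1 and 190.2 CPM in treated libraries 4, 5 and 6, 63.4, 62 and 78.2 CPM in the osteogenic libraries and 47.2, 29.6 and 107 CPM in the untreated ones. In proportion to its level it had the widest spread of the 6 among untreated libraries, and it had the largest paired change of them, 1.22 ± 0.17 (adjusted p = 0.00848). Mcm6 (ENSMUSG00000026355) had 353, 285 and 416 CPM in treated libraries 4, 5 and 6, 236, 192 and 202 CPM in the osteogenic libraries and 178, 120.1 and 276 CPM in the untreated ones. Mcm7 (ENSMUSG00000029730) had 229, 166 and 189 CPM in treated libraries 4, 5 and 6, 139, 122 and 116 CPM in the osteogenic libraries and 145, 128 and 147 CPM in the untreated ones. For these last subunits every treated library lay above every osteogenic and every untreated one. Mcm7 was the subunit that rose against osteogenic libraries, by 0.63 ± 0.15 (adjusted p = 0.0241), although its change was smaller than that of Mcm3, at 0.88 ± 0.36, or Mcm5, at 1.00 ± 0.50. Paired changes of the others that rose were 0.86 ± 0.18 for Mcm3, 0.70 ± 0.14 for Mcm4, 0.94 ± 0.15 for Mcm6 and 0.47 ± 0.11 for Mcm7, and Mcm2 stood at 0.53 ± 0.21 (adjusted p = 0.158). Osteogenic over untreated, the 6 lay between -0.15 and 0.23.

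Of the genes that activate the helicase, Mcm10 (ENSMUSG00000026669), which helps to start the helicase, had 31, 13.7 and 25.1 CPM in treated libraries 4, 5 and 6, 8.10, 7.94 and 11.2 CPM in the osteogenic libraries and 7.60, 5.92 and 12 CPM in the untreated ones. All treated libraries lay above all others, while the osteogenic and untreated ones overlapped. Mcm10 rose against osteogenic libraries by 1.35 ± 0.36 (adjusted p = 0.0387) and in the paired test by 1.43 ± 0.24 (adjusted p = 0.0147), with pair ratios of 4.08, 2.31 and 2.09. Gins4 (ENSMUSG00000031546), a GINS subunit, had 51.9, 45.7 and 69.9 CPM in treated libraries 4, 5 and 6, 43.4, 36.8 and 43.1 CPM in the osteogenic libraries and 49, 39.7 and 62 CPM in the untreated ones. It was among the least changed of the 42 with IFNγ, at 0.15 ± 0.10 in the paired test (adjusted p = 0.352), although its treated libraries lay above the osteogenic ones. The other GINS subunits split: Gins1 and Gins2 rose in the paired test, by 0.96 ± 0.19 and 0.60 ± 0.13, and Gins3 stood at 0.55 ± 0.17 (adjusted p = 0.0935).

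Of the 9 polymerase and primase subunits 7 rose with IFNγ in the paired test, with Prim2 and Pold2 the exceptions. Pola2 (ENSMUSG00000024833), the accessory subunit of polymerase alpha, had 122, 64.5 and 93.2 CPM in treated libraries 4, 5 and 6, 31.2, 37.2 and 38.5 CPM in the osteogenic libraries and 57.7, 34.9 and 55.4 CPM in the untreated ones. Treated libraries lay above all others. Pola2 rose against osteogenic libraries by 1.38 ± 0.27 (adjusted p = 0.012) and against untreated ones in the paired test by 0.90 ± 0.11 (adjusted p = 0.0061), and osteogenic over untreated it stood at -0.47 ± 0.27. Prim1, the catalytic primase subunit, rose against osteogenic libraries by 1.15 ± 0.25 (adjusted p = 0.0193), whereas Prim2, the large primase subunit, stood at 0.30 ± 0.20. Pold1 (ENSMUSG00000038644), the catalytic subunit of polymerase delta, had 112, 59.4 and 87.1 CPM in treated libraries 4, 5 and 6, 72.9, 52.1 and 65.3 CPM in the osteogenic libraries and 61.1, 36.1 and 56 CPM in the untreated ones. Treated libraries 4 and 6 were the highest, and treated library 5 lay inside both other ranges. Pole2 (ENSMUSG00000020974), the second subunit of polymerase epsilon, had 18.1, 9.11 and 21.4 CPM in treated libraries 4, 5 and 6, 13.8, 13 and 16.2 CPM in the osteogenic libraries and 8.25, 4.78 and 12.1 CPM in the untreated ones. Here the osteogenic libraries lay wholly above the untreated ones, at 0.78 ± 0.39 (adjusted p = 0.273), and within the treated range. The paired changes were 0.74 ± 0.13 for Pold1, 0.96 ± 0.14 for Pole2, 1.08 ± 0.16 for Pole, the catalytic subunit of epsilon, and 0.89 ± 0.11 for Pola1, the catalytic subunit of alpha.

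At the sliding clamp, Pcna (ENSMUSG00000027342), the clamp on which the replicative polymerases run, had 184, 84.9 and 145 CPM in treated libraries 4, 5 and 6, 77.5, 66.2 and 80.9 CPM in the osteogenic libraries and 88.3, 51.7 and 102 CPM in the untreated ones. All treated libraries lay above all osteogenic ones, and untreated library 6 lay above treated library 5. Pcna rose in the paired test by 0.76 ± 0.13 (adjusted p = 0.0164) and stood at 0.88 ± 0.32 against osteogenic libraries (adjusted p = 0.0987). Rfc3 (ENSMUSG00000033970), a subunit of the clamp loader, had 41.5, 38.3 and 43.9 CPM in treated libraries 4, 5 and 6, 33.2, 30.8 and 31 CPM in the osteogenic libraries and 23.9, 25.2 and 27.8 CPM in the untreated ones. The 3 groups were separate and the libraries of each close together, in the order treated, osteogenic, untreated. Rfc3 alone of the 42 rose with IFNγ without the pairing, by 0.69 ± 0.12 (adjusted p = 0.02), and it rose in the paired test too (adjusted p = 0.00653). That unpaired call was lost without untreated library 4, untreated library 5 or treated library 6, with adjusted p up to 0.0820. Against osteogenic libraries Rfc3 stood at 0.38 ± 0.12 (adjusted p = 0.0576), and osteogenic over untreated at 0.31 ± 0.12 (adjusted p = 0.161). Rfc1 (ENSMUSG00000029191), the large loader subunit, had 159, 90.0 and 125 CPM in treated libraries 4, 5 and 6, 104, 84.8 and 87.3 CPM in the osteogenic libraries and 97.5, 57.6 and 82.7 CPM in the untreated ones. Its treated range began inside both others, and it rose in the paired test by 0.65 ± 0.10 (adjusted p = 0.0118). Rfc5 also rose in the paired test, and Rfc2 and Rfc4 did not, at 0.31 ± 0.10 and 0.37 ± 0.16.

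None of the 3 subunits of replication protein A, which coats single-stranded DNA at the fork and in repair, passed in any of the 3 comparisons or in the paired test. Rpa1 (ENSMUSG00000000751) had 180.3, 120.4 and 261 CPM in treated libraries 4, 5 and 6, 149, 117 and 174 CPM in the osteogenic libraries and 138, 109.7 and 233 CPM in the untreated ones. Rpa2 (ENSMUSG00000028884) had 38.7, 23.2 and 48.2 CPM in treated libraries 4, 5 and 6, 29.9, 21.3 and 34.5 CPM in the osteogenic libraries and 22.2, 17.5 and 35.4 CPM in the untreated ones. In both, library 6 was the highest of each group and the groups overlapped. Rpa3 (ENSMUSG00000012483) had 11.7, 7.28 and 9.03 CPM in treated libraries 4, 5 and 6, 10.9, 10.4 and 11 CPM in the osteogenic libraries and 10.4, 7.77 and 7.84 CPM in the untreated ones. Its osteogenic libraries were nearly equal, and its treated ones spanned both other groups. The paired log2 fold changes were 0.22 ± 0.15 for Rpa1, 0.55 ± 0.19 for Rpa2 and 0.10 ± 0.13 for Rpa3.

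Of the enzymes that join Okazaki fragments, Fen1 (ENSMUSG00000024742), the flap endonuclease, had 121, 51.3 and 96.5 CPM in treated libraries 4, 5 and 6, 30.5, 31 and 36.7 CPM in the osteogenic libraries and 53.1, 31.6 and 58.2 CPM in the untreated ones. Lig1 (ENSMUSG00000056394), the DNA ligase that seals the fragments, had 115, 67.5 and 105 CPM in treated libraries 4, 5 and 6, 61.7, 53.3 and 59 CPM in the osteogenic libraries and 57.1, 34.5 and 64.2 CPM in the untreated ones. Treated libraries lay above all osteogenic ones for both genes, and above all untreated ones for Lig1 only. Both rose in the paired test, Fen1 by 0.87 ± 0.13 (adjusted p = 0.0111) and Lig1 by 0.89 ± 0.10 (adjusted p = 0.00411). Fen1 also rose against osteogenic libraries, by 1.45 ± 0.33 (adjusted p = 0.0225), and Lig1 stood at 0.72 ± 0.26 there (adjusted p = 0.101). Osteogenic over untreated, Fen1 stood at -0.54 ± 0.33 and Lig1 at 0.16 ± 0.26.

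In nucleotide supply, Rrm1 (ENSMUSG00000030978), the large subunit of ribonucleotide reductase, had 171, 145 and 174 CPM in treated libraries 4, 5 and 6, 297, 203 and 249 CPM in the osteogenic libraries and 181, 127 and 155 CPM in the untreated ones. It was the one gene of the 42 whose osteogenic libraries all lay above every treated and every untreated library. Treated over osteogenic it stood at -0.61 ± 0.19 (adjusted p = 0.0577), osteogenic over untreated at 0.69 ± 0.19 (adjusted p = 0.0726), and treated over untreated at 0.08 ± 0.18. With DESeq2 it passed as lower in treated than in osteogenic libraries (11.7% of all genes were lower) and as higher in osteogenic than in untreated ones. Rrm2, the small subunit made in S phase, had 57.1, 97.6 and 175 CPM in treated libraries 4, 5 and 6, 98.6, 65.5 and 94.6 CPM in the osteogenic libraries and 37.7, 109.9 and 130.1 CPM in the untreated ones. Library 4 was the lowest of both adipogenic groups here, unlike in most of the 42, and the paired change was 0.28 ± 0.20 (adjusted p = 0.423). Tk1 (ENSMUSG00000025574), the thymidine kinase of dividing cells, had 50.2, 28.5 and 61.2 CPM in treated libraries 4, 5 and 6, 21.3, 27.3 and 23.5 CPM in the osteogenic libraries and 11.1, 12.9 and 29.3 CPM in the untreated ones. All treated libraries lay above all osteogenic ones, and untreated library 6 just above treated library 5. Tk1 rose in the paired test by 1.45 ± 0.23 (adjusted p = 0.0138), with ratios of 4.53, 2.21 and 2.09 in pairs 4, 5 and 6. Tyms, which makes thymidylate, rose by 0.60 ± 0.08 in the same test (adjusted p = 0.00687). Both enzymes of thymidine nucleotides passed the paired test and neither subunit of ribonucleotide reductase did, but the difference between them was not tested.

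For chromatin on new DNA, Uhrf1 (ENSMUSG00000001228), which recruits the maintenance DNA methyltransferase to replicated DNA, had 185, 87.8 and 153 CPM in treated libraries 4, 5 and 6, 66.7, 67.3 and 67.3 CPM in the osteogenic libraries and 53.4, 37.6 and 73.1 CPM in the untreated ones. Chaf1a (ENSMUSG00000002835), the large subunit of chromatin assembly factor 1, had 102, 60.0 and 79.2 CPM in treated libraries 4, 5 and 6, 46.6, 40.2 and 45.6 CPM in the osteogenic libraries and 41.5, 41.4 and 54.4 CPM in the untreated ones. For both, every treated library lay above every osteogenic and untreated one, and the osteogenic libraries were nearly equal for Uhrf1. Uhrf1 rose against osteogenic libraries by 1.08 ± 0.30 (adjusted p = 0.0454) and in the paired test by 1.36 ± 0.14 (adjusted p = 0.00337). Chaf1a rose by 0.87 ± 0.21 (adjusted p = 0.0251) and 0.79 ± 0.16 (adjusted p = 0.0301) in the same tests. Chaf1b, its partner, rose in the paired test by 0.97 ± 0.16 (adjusted p = 0.0138) and stood at 1.44 ± 0.46 against osteogenic libraries (adjusted p = 0.0669).

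**Figure D3:**
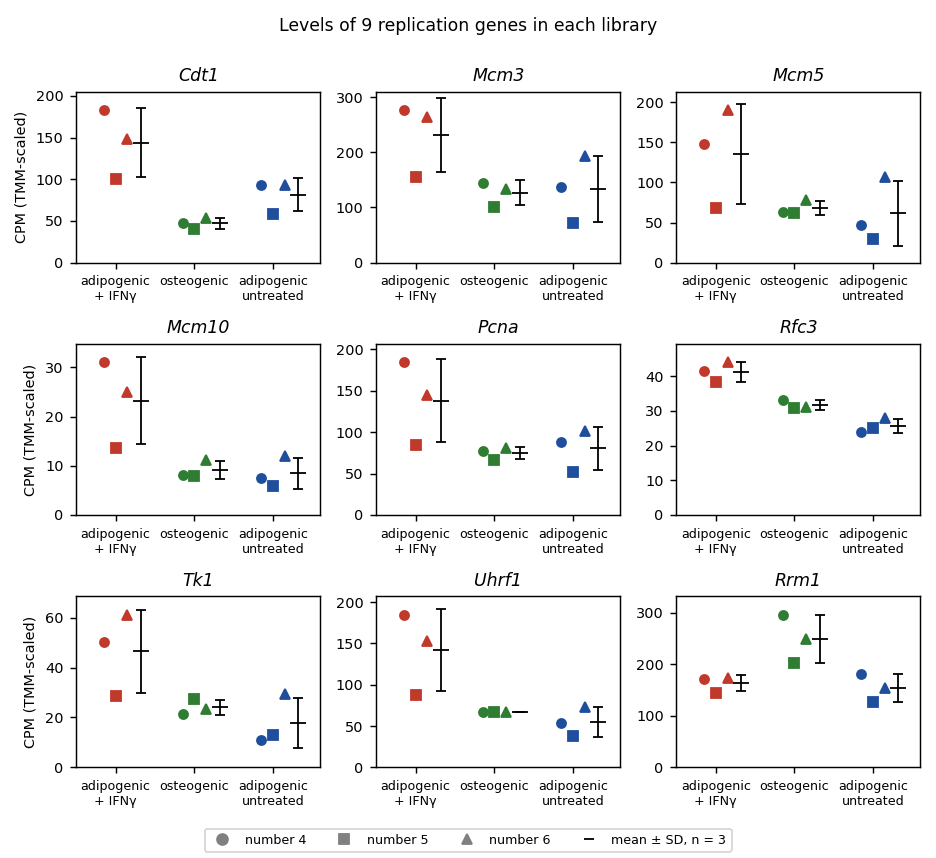
CPM on TMM-scaled library sizes (y axis, from 0) of 9 replication genes in each of the 9 libraries, by group (x axis), with the number of the library as symbol and the mean ± SD (n = 3) beside each group. Cdt1 and Rfc3 separate the 3 groups, Rrm1 is highest in the osteogenic libraries, and for most other panels library 5 (squares) is the lowest of its adipogenic group.

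Levels within the machinery can be compared only per length of exon. In treated libraries Mcm2, Mcm6 and Mcm3 led, with group means of 82.2, 80.5 and 77.5 CPM per kilobase, followed by Cdt1 at 65.8. In osteogenic libraries Rrm1 came first, at 62.3 CPM per kilobase, before Mcm2 at 52.4 and Mcm6 at 48.2. In untreated libraries Mcm2, Mcm3 and Mcm6 led with 57.8, 44.7 and 43.8 CPM per kilobase, and Rrm1 followed at 38.6. Neighbours in these orders were not tested against each other. Mcm5 and Mcm7 were the lowest helicase subunits in all 3 groups, and Mcm10, Cdc6 and Gins3 the lowest of the 42, with means over all 9 libraries of 1.77, 2.55 and 3.56 CPM per kilobase. The deposited exonic length adds up all exons of a gene, so a gene with long unused exons is understated. The 2 lowest genes by level, Mcm10 and Cdc6, were among the 3 with the largest paired changes.

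The windows around the start sites were read for letters that E2F factors are known to bind. Many genes of this machinery are known E2F targets, so a high share follows from the choice of genes, whatever their change here. The windows of all genes were not limited to genes expressed in these cells. Windows from RefSeq (GRCm38.p6, 250 bases before to 50 after each start, 300 in all) were found for 34 of the 42 genes, 40 windows in all. The E2F search took TTTCCCGC, TTTGGCGC, TTTCGCGC and TTTGCCGC on both strands, with overlapping matches counted. A match lay in 14 of 40 windows (35.0%), each of a different gene, beside 744 of 32851 windows of all genes (2.26%). The genes were Mcm3, Mcm5, Mcm6, Mcm7, Rfc3, Lig1, Pold1, Pold3, Gins3, Cdt1, Cdc6, Pole2, Uhrf1 and Pola1. The CCAAT box, read as CCAAT or ATTGG, lay in 57.5% of the members' windows and 37.4% of all windows. The 14 genes with an E2F match had a median paired log2 fold change of 0.88, and 13 of them rose with IFNγ. The 20 genes with a window and no match had a median of 0.60, and 11 of them rose. This difference was not tested, a match is not a bound site, and these windows were read in the reference sequence and not in these cells. The windows of 7 genes are printed as examples of both kinds: Mcm3 (chr1:20820263-20820562, minus strand), Mcm5 (chr8:75109259-75109558, plus strand), Mcm6 (chr1:128359656-128359955, minus strand), Rfc3 (chr5:151651159-151651458, minus strand) and Cdt1 (chr8:122567765-122568064, plus strand) hold 2, 2, 3, 2 and 1 matches, and Rrm1 (chr7:102441445-102441744, plus strand) and Tk1 (chr11:117825965-117826264, minus strand) hold none. Each runs 5′ to 3′ along the gene's strand, and capitals mark the E2F matches, which overlap in Mcm5 and in the first run of Mcm6.
Mcm3: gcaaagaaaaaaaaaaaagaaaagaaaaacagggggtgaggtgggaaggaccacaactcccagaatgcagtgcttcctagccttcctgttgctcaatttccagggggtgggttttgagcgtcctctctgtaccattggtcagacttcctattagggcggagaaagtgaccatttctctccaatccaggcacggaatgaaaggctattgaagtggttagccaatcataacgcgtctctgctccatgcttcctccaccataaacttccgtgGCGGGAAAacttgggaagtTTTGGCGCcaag
Mcm5: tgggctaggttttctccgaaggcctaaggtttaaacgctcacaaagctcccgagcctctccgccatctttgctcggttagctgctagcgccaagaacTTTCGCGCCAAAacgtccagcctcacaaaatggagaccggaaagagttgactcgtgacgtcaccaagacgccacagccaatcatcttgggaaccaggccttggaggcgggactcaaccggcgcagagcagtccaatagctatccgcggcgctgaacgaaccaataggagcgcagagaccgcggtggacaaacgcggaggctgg
Mcm6: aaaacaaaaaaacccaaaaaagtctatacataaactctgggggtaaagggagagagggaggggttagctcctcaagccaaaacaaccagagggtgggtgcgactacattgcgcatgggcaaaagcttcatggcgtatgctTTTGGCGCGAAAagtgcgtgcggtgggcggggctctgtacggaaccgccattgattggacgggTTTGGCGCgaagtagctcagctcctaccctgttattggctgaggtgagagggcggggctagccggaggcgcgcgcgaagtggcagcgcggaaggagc
Rfc3: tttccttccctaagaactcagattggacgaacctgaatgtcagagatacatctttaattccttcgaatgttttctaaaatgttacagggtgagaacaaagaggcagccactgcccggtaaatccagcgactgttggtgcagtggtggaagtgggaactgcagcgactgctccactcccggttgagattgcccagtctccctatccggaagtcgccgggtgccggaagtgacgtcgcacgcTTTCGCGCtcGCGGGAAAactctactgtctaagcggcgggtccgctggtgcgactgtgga
Cdt1: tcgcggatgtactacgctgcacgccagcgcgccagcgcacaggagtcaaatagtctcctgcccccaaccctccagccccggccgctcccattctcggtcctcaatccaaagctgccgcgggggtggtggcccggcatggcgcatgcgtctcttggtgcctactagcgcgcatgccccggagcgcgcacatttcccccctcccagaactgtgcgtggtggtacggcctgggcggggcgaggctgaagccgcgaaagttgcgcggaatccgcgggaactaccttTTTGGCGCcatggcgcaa
Rrm1: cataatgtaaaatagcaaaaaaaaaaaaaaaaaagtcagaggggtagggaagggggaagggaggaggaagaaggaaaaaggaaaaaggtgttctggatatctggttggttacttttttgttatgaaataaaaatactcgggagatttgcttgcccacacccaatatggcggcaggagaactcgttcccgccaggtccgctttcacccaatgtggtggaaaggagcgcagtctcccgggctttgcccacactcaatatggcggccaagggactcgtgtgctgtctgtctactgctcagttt
Tk1: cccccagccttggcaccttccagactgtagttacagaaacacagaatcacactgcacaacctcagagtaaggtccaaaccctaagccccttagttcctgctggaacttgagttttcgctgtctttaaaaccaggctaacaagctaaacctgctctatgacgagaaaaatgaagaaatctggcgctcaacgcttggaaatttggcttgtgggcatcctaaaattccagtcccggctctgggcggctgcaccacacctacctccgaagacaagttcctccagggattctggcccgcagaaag

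In Mcm3, Rfc3 and Cdt1 the matches lay within 50 bases of the start, and in Mcm5 and Mcm6 they lay up to 153 and 110 bases before it. Mcm3, Mcm5, Mcm6, Rfc3 and Cdt1 all rose with IFNγ in the paired test. The genes without these letters differed widely in that test: Rrm1 stood at 0.09 ± 0.15, the smallest change of the 20, while Tk1 rose by 1.45 ± 0.23 and Mcm10 by 1.43 ± 0.24, among the largest of the 42. Gins3, the gene with a match that did not pass, stood at 0.55 ± 0.17.

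Other genes of replication and of the cell cycle were read from 6 lists, with the same tests. Their counts stand against the same shares of all genes: 2.01% higher with IFNγ unpaired, 6.53% in the paired test and 9.2% against osteogenic libraries. Lower were 645 of the 15098 genes tested in the paired test, 1136 in treated against osteogenic libraries and 481 in osteogenic against untreated ones. Of 34 further replication factors 1 rose with IFNγ without the pairing, Wdhd1, a fork protein that links helicase and polymerase alpha, at 1.23 ± 0.21 (adjusted p = 0.0188). In the paired test 13 of them rose and 1 fell, Pold4, the small subunit of polymerase delta, at -0.72 ± 0.17 (adjusted p = 0.0443). That 1 of 34 is a share no greater than that of all genes that fell. Cdc45, which forms the active helicase with MCM and GINS, rose by 1.04 ± 0.13 in the paired test, and Cdc7, the kinase that fires origins, by 0.98 ± 0.19. Against osteogenic libraries 3 of the 34 rose, Wdhd1, Topbp1 and Dbf4, a share no greater than that of all genes, and osteogenic over untreated none passed. Of 9 further chromatin genes 1 rose with IFNγ unpaired, Slbp, which binds histone mRNA, at 0.67 ± 0.13 (adjusted p = 0.0463), and 6 rose in the paired test, among them Dnmt1, the maintenance DNA methyltransferase, by 0.75 ± 0.17.

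Among 10 further genes of nucleotide metabolism, Samhd1, which breaks down deoxynucleotides, had 734, 1623 and 1136 CPM in treated libraries 4, 5 and 6, 232, 329 and 291 CPM in the osteogenic libraries and 183, 144 and 190.2 CPM in the untreated ones. It rose with IFNγ by 2.75 ± 0.30 (adjusted p = 0.00252) and against osteogenic libraries by 2.04 ± 0.29 (adjusted p = 0.0034). Every treated library lay above all others. Treated library 5 was the highest for Samhd1, while it was the lowest treated library for 41 of the 42 replication genes. Shmt1, an enzyme of the folate cycle, fell in osteogenic against untreated libraries, at -1.04 ± 0.23 (adjusted p = 0.0406).

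Of 25 genes that control entry into S phase, 1 rose with IFNγ without the pairing: Rbl1, a retinoblastoma family member and itself a known E2F target, at 0.97 ± 0.13 (adjusted p = 0.00666). In the paired test 6 rose and 1 fell, and that 1 of 25 is a share no greater than that of all genes that fell. The one that fell was Rb1, at -0.64 ± 0.13 (adjusted p = 0.0282), with 18.3, 53 and 25.2 CPM in treated, 42.7, 38.2 and 39.3 CPM in osteogenic and 35.1, 83.6 and 31.3 CPM in untreated libraries. Ccne1 and Ccna2, cyclins of S phase entry and S phase, rose in the paired test by 1.20 ± 0.25 and 1.46 ± 0.33, and E2f1 stood at 0.42 ± 0.11 (adjusted p = 0.066). Of 7 CDK inhibitors none passed unpaired, and in the paired test Cdkn1a, which encodes p21, fell, at -0.88 ± 0.19 (adjusted p = 0.0327), with 389, 910.1 and 564 CPM in treated, 912, 741 and 1029 CPM in osteogenic and 989.8, 1454 and 868 CPM in untreated libraries. Against osteogenic libraries Rbl1, Cdc25a, Cdk4 and Ccne1 rose and Cdkn2b, which encodes p15, fell, at -1.21 ± 0.20 (adjusted p = 0.00629). Ccnd2, a cyclin of G1, fell in osteogenic against untreated libraries, at -1.03 ± 0.20 (adjusted p = 0.0292).

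The 20 genes of mitosis set the replication genes beside a later stage of the cycle. With IFNγ none of the 20 passed unpaired and 13 rose in the paired test, with a median unpaired log2 fold change of 1.29 beside 0.74 for the 42 replication genes. At an unadjusted p under 0.05, 17 of the 20 were higher (8.95% of all genes), and DESeq2 called 9 (5% of all genes). Mki67, the proliferation antigen, had 114, 42.3 and 121 CPM in treated libraries 4, 5 and 6, 36.2, 64.1 and 74.8 CPM in the osteogenic libraries and 23.8, 18.8 and 49.8 CPM in the untreated ones. Top2a, the topoisomerase of dividing cells, had 284, 107 and 317 CPM in treated libraries 4, 5 and 6, 89.9, 119.7 and 151 CPM in the osteogenic libraries and 55.5, 37.7 and 105 CPM in the untreated ones. Both rose in the paired test, by 1.57 ± 0.32 and 1.82 ± 0.24. Osteogenic over untreated, all 20 mitosis genes were above 0 (48.6% of all genes), with a median of 0.82 beside 0.06 for the replication genes. None of the 20 was past the threshold, and 4 were higher at an unadjusted p under 0.05 (10.5% of all genes). Treated over osteogenic the medians were 0.54 for mitosis and 0.64 for replication. There none of the 20 mitosis genes passed and 1 was higher at an unadjusted p under 0.05. Of the 42 replication genes 9 and 25 were higher at these thresholds, and of all 15098 genes 1389 and 2603. These differences between lists were not tested.

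**Figure D4:**
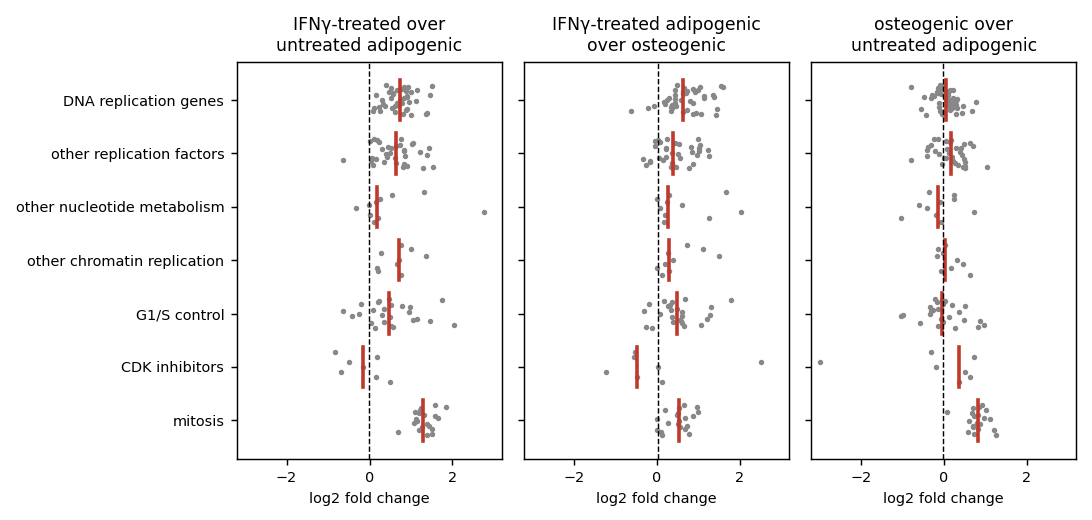
Log2 fold changes without the pairing (x axis) of the 42 replication genes and of 6 other lists (rows), 1 grey point per gene, with the list median as a red bar and the median of all genes tested as a dashed line, in each of the 3 comparisons (panels). All 42 replication genes lie right of the line in IFNγ-treated over untreated libraries, and 39 do in treated over osteogenic, where Rrm1, Rpa3 and Rfc4 lie left of it. They lie around it in osteogenic over untreated, where the mitosis genes lie to its right.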

How the data were processed

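RNA-seq was made from 9 libraries in 3 groups of 3. The deposited table holds whole-number counts of reads per Ensembl gene, not normalized by the authors, with exonic length. Per the submitters' processing notes, CASAVA 1.8.0, bedtools 2.11 and the build mm9 were used; the aligner, the counter and its strand setting: not given in the sources used here. The kit was directional per the labels' protocols, but overlapping and antisense genes remain uncertain. Groups came from the titles and the design text.

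Tests used edgeR 4.0.16 in R 4.3.3: filterByExpr by group, TMM scaling, and a robust quasi-likelihood fit with a group term over all 9 libraries, with two-sided tests and Benjamini-Hochberg adjustment over 15098 genes at 0.05. The SE is the size of the log2 fold change over the square root of F. Alternatives were other scalings, no filter, DESeq2 1.42.0, voom of limma 3.58.1, each comparison's 6 libraries alone, the number as a block, and each library left out. In data simulated with less spread than these, the fit recovered the size of planted changes larger than those of the members. That check does not cover how many genes pass, rightly or wrongly, in these data. No pair of replicates agreed within sampling noise (chi-square over degrees of freedom 66.7 to 233.9).

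Whether the paired test is given beside the unpaired one was decided from how library deviations correlated. Library deviations from their group mean correlated across genes at 0.778, 0.769 and 0.779 for same-numbered treated and untreated libraries, and at -0.461 to -0.279 for others, which partly follows since deviations sum to 0 within a group. The paired test adds the number as a block for the adipogenic libraries. Osteogenic libraries did not pair (-0.0546 to 0.0552).

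The members and the lists were chosen with earlier results of these data known. Values in every library are given for Pcna, Mcm2 to Mcm7 and, in each role class, the member with the highest mean CPM and the one with the smallest unadjusted p in each comparison. Up to 4 genes per other list with the smallest unadjusted p were eligible by rule, and Mki67, Top2a, E2f1, Ccne1, Ccna2, Cdkn1a, Rb1, Samhd1 and Irf1 always. Rrm2, Pold4, Kdr, Sp7, Col1a1 and Pdgfrb were chosen after their values were seen. Mcmbp was matched by Ensembl identifier, and Ticrr and Pclaf by older names; Emr1, Cd3e and Cldn5 were not analysed here. A result eligible by that rule is not reported here. Promoter windows came from RefSeq on GRCm38.p6.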

Additional observations from a re-analysis of the deposited data

How the results depend on the processing

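Single genes were followed for the 42 members together with the other lists and the genes used to check labels and cell types. Of the fitted changes of all these genes under the alternatives, 6889 kept their side of the threshold, 300 newly passed it and 333 no longer did. No change that passed reversed its direction, and 248 that passed under neither setting crossed 0. For IFNγ against untreated, where 1 gene passed, 12 passed with DESeq2, 0 with only the 6 libraries, 29 with the replicate block and 34 with the replicate block in only the 6 libraries; leaving out 1 library gave 0 to 4. The count of 29 fell to 10, 9 and 11 without pair 4, 5 and 6. Over all genes the paired test called 1631 and the unpaired one 341. For osteogenic against untreated, where 0 passed, DESeq2 gave 2, the numbers as a replicate block over all 9 libraries gave 2, and leaving out 1 library gave 0. For treated against osteogenic, where 9 passed, DESeq2 gave 16 and the numbers as a replicate block 19, of which 1 was lower in each, Rrm1, limma-voom gave 6 (without Gmnn, Mcm10 and Uhrf1) and upper-quartile scaling 8 (without Gmnn and Uhrf1, and with Rrm1 lower). Over all genes, DESeq2 called 2076 higher and 1754 lower in that comparison, and limma-voom 1301 higher and 1169 lower. With only the 6 libraries 9 members passed, Mcm6 in place of Gmnn, and leaving out 1 library gave 2 to 14. Counts over all genes are not given here for the other scalings or the fits with only 6 libraries. Nor are they given for the numbers as a block over all 9 libraries, or for fits with a library or pair left out. Osteogenic libraries share only a number with the others, so that block is no pairing. All 42 changes with IFNγ stayed above 0 under TMM, RLE and upper-quartile scaling, and 39 to 42 did with 1 library left out. The lowest count of a member in any library was 103, so counting error was small beside the spread of 3 libraries a group.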
